A study of Mus musculus with 18 samples.

Results

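The large mouse cluster of replication-dependent histone genes, formerly called Hist1, was described here by the open chromatin sites it contains in embryonic stem (ES) cells. Its members were all ATAC-seq peaks of 18 deposited lists that overlapped either of 2 windows of mouse chromosome 13 in the mm9 build: window 1, chr13:21700000-22200000, and window 2, chr13:23500000-23950000. Peaks that overlapped by 1 bp or more were merged across the lists. This gave 257 regions, 125 in window 1 and 132 in window 2, of 377189 regions in the whole genome. In ATAC-seq a transposase inserts adapters into accessible DNA, and a peak marks a stretch with many insertions.

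The study perturbed topoisomerase II (TOP2), which passes one DNA duplex through another, and BAF, a chromatin remodelling complex. ICRF-193, which blocks the TOP2 cycle without trapping broken DNA, was given to wild-type ES cells at 1 µM, with DMSO alone as the control. Treatment lasted 24 h in 2 libraries per group and 1 h in 3 libraries per group. The 1 h label rests on the sample titles and the design text, because the treatment protocol names 24 h only. Cells of a Brg1 fl/fl; Actin-CreER line and of a Baf53a fl/-; Actin-CreER line were kept for 24 h in 0.8 µM tamoxifen, or in ethanol as the control, and for another 48 h in medium with neither (2 libraries per group and line). Tamoxifen activates the Cre recombinase, which removes the floxed gene: Brg1 encodes the motor subunit of BAF, and Baf53a a subunit related to actin. The ethanol controls carry the same CreER transgene, and those of the Baf53a line already lack 1 allele of Baf53a. All cells grew in serum and LIF and were sorted as viable, and the replicates of a group are passages of 1 line. P-values therefore measure the spread between passages and libraries.

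Replication-dependent histone genes are typically short genes without introns that encode the core histones H2A, H2B, H3 and H4 and the linker histone H1. Their transcription rises when cells enter S phase, in a nuclear body organised by the coactivator NPAT, and their mRNAs end in a stem-loop instead of a poly(A) tail. ES cells divide rapidly and spend much of the cycle in S phase. In the RefSeq gene table of GRCm38.p6, a later build than that of the peaks, the cluster had 55 histone genes. By class these were 6 of H1, 15 of H2A, 14 of H2B, 9 of H3 and 11 of H4. The H2A number includes the pseudogenes H2ac14 and H2ac5-ps, and the H2B number includes entries as long as 37455 bp (H2bc6). The 55 genes formed 2 groups. The first ran from H2bc13 to H2bc11 with 23 histone genes, 31 tRNA genes and 4 other protein-coding genes, and the second from H4c8 to H2ac1 with 32 histone genes and 6 other protein-coding genes. Between the groups were 147 entries, among them 75 vomeronasal receptor genes and 46 tRNA genes. The 2 windows were drawn around the cluster in mm9, and their match to these groups was not checked, as the builds differ. No mm9 annotation was used here, so no peak was assigned to a gene, and neither the ES cell identity nor the deleted genes were checked at their loci.

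To show the regulatory DNA of the genes that define the cluster, the 150 bases before the start of 8 of them are given in the gene's 5′ to 3′ direction, from RefSeq and GRCm38.p6. These coordinates cannot be set against the mm9 peaks. Capitals mark matches on either strand to 5 motifs: the TATA box (TATAAA), the CCAAT box (CCAAT), the octamer (ATTTGCAT), the H4 core (GTCCG) and the H1 box (AAACACA).
H1f1 (chr13:23763518-23763667, plus strand): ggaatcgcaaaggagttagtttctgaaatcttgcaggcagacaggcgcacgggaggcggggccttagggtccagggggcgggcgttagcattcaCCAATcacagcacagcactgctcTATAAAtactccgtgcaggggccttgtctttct
H2ac1 (chr13:23934287-23934436, plus strand): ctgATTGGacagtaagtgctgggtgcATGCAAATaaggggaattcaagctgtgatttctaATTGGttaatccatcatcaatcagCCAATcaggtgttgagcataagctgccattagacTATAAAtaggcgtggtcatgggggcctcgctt
H2ac4 (chr13:23750938-23751087, plus strand): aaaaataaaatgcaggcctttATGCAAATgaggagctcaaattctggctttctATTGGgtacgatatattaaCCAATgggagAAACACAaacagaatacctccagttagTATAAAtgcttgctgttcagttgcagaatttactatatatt
H2bc1 (chr13:23934157-23934306, minus strand): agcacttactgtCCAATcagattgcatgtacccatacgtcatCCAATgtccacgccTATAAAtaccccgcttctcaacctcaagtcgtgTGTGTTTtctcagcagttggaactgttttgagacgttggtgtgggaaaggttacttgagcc
H2bc3 (chr13:23746584-23746733, plus strand): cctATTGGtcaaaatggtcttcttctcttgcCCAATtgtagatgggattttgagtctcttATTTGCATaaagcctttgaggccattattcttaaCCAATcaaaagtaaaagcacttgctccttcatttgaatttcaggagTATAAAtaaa
H3c2 (chr13:23752195-23752344, plus strand): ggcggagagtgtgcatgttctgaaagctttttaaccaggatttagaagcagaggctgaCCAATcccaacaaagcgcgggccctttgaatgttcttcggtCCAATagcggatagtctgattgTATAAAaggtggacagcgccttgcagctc
H4c1 (chr13:23761250-23761399, minus strand): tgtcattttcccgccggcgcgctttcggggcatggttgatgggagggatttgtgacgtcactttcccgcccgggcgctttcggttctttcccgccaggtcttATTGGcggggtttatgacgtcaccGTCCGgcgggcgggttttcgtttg
H4c2 (chr13:23756787-23756936, plus strand): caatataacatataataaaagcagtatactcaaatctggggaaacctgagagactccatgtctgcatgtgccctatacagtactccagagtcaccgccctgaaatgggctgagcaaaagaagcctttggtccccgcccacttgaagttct
The genes were the first of each histone class by symbol with a sequence in the table, which held 51 promoter sequences of 50 of the 55 genes.

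The classes differed in the motifs found in the 250 bases before the start. CCAAT was present in all 40 promoters of H1, H2A, H2B and H3 genes and in 3 of 11 H4 promoters, against 33.8% of 32851 mouse promoters of the same length. The octamer, the site of POU factors such as OCT1, was present in 5 of 13 H2A and 6 of 14 H2B promoters and in none of the other classes, against 1.60% of all promoters. GTCCG, part of the cell cycle element of H4 genes, was found in 10 of 11 H4 promoters and in 7 of the 40 others (19.2% of all promoters). AAACACA was found in 5 of 6 H1 promoters (6.25% of all), and TATAAA in 26 of the 51 (12.4% of all). H2A and H2B genes lay head to head: in 9 H2A-H2B pairs on opposite strands the promoter sequences, including 50 bases after each start, overlapped. The overlaps ran from 220 bp (H2ac1 and H2bc1, both printed above) to 279 bp (H2bc8 and H2ac8). Motif matches of the 18 genes in these pairs are thus not independent, as 1 site can count for both members of a pair. Of 190 matches, 1 pair of different motifs shared bases. A match describes the letters and does not show binding.

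The cluster was dense in sites that every library held. Of its 257 regions, 60 (23.3%) had a peak in all 18 lists, against 18061 of 377189 regions (4.79%) in the genome. Another 49 regions had a peak in 10 to 17 lists, 73 in 2 to 9 lists and 75 (29.2%) in 1 list, against 54.9% of the genome's regions in 1 list. The 60 common regions split into 28 in window 1 and 32 in window 2, or 5.60 and 7.11 per 100 kb. Over 5268 tiles of 500 kb across the genome the median was 0.4 and the mean 0.683 per 100 kb. The tile from 23500001 to 24000000, which contains window 2, had more common regions than any other tile. Neighbouring common regions in the cluster were a median of 7.56 kb apart (quartiles 4.75 and 12.96 kb), and 50.3 kb apart in the genome.

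**Figure D1:**
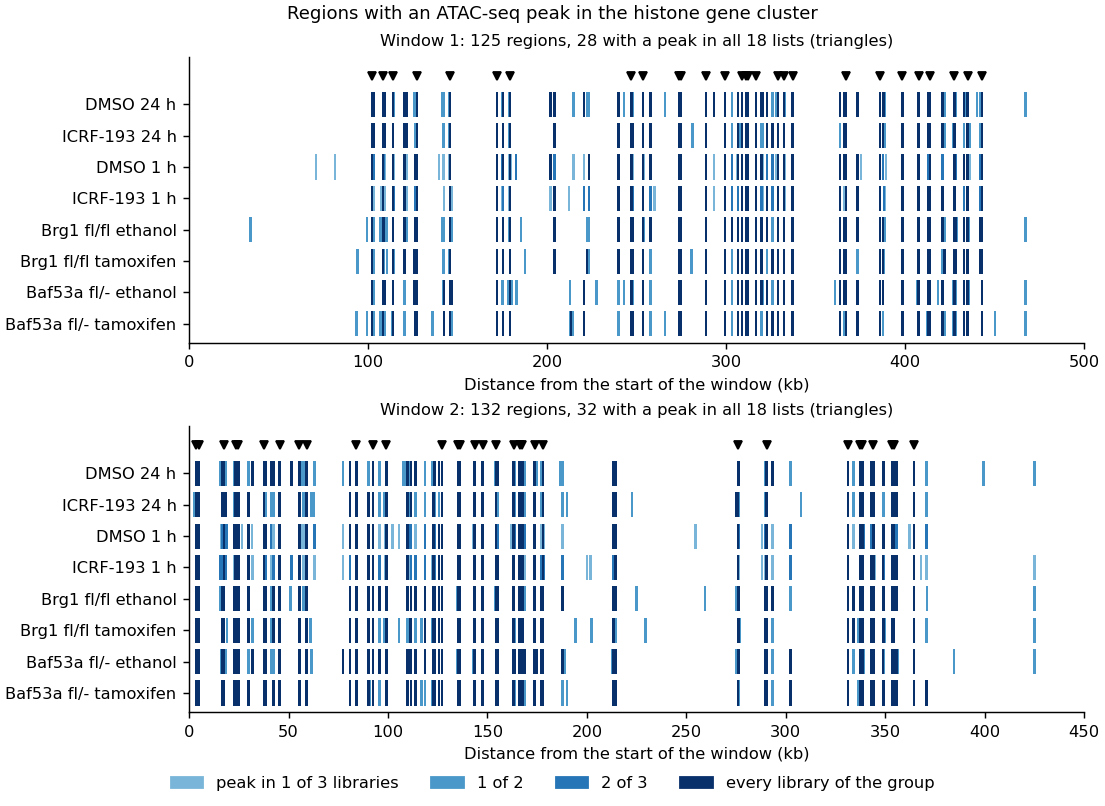
Regions with a peak in the 2 windows, by distance from the window's start (x axis, kb) and sample group (rows). Bars are drawn wider than most regions, and their shade gives how many libraries of the group had a peak. Triangles mark the 28 and 32 regions found in all 18 lists, which stand in runs separated by gaps of up to 67.9 kb (window 1) and 97.9 kb (window 2).

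The common regions lay in runs rather than evenly. In window 1 they ran from 21801866 to 22142419 with a longest step of 67.9 kb between neighbouring starts, from 21879013 to 21946870. In window 2 they ran from 23503141 to 23864409, and the longest step, from 23677766 to 23775653, measured 97.9 kb. Bins of 50 kb show the same unevenness: the bin at 22000001-22050000 had 9 to 15 peaks per library (median 12) and the bin at 23500001-23550000 had 10 to 17 (median 14). The first bin of window 1 had at most 1 peak in any library, and the last bin of each window at most 2. Common regions are by definition at the same places in all groups, and the map of the regions by group shows the less shared ones beside them.

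Common regions of the cluster were narrower than other common regions and of middle rank. The median merged width was 517.5 bp in the cluster (248 to 1491 bp) and 915 bp over all 18061 common regions. Averaged over the libraries, a median of 356 bp lay under peaks per cluster region, against 544 bp. Regions with a mean of 1 kb or more under peaks numbered 2 of 60 (3.33%), against 5.56% of all common regions. The score of a peak is the authors' own value without a stated unit, so it was used only as a rank within a list, given as a percentile (100 is the highest). The mean percentile of the 60 regions had a median of 82.3 in their whole lists, close to the 84.9 of all common regions. Ranked among the 18061 common regions alone, the cluster's median was 42.0 with a range of 9.69 to 82.1, and none had a mean above 90.

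The highest-ranked region of window 2 was chr13:23775653-23776226 (574 bp). It had percentiles of 88.1 to 99.6 over the 18 lists (mean 95.8 ± 2.62, SD, n = 18) and 399 to 535 bp under a single peak. It is the first common region after the long step in window 2. The highest of window 1 was chr13:21845560-21846107 (548 bp), with percentiles of 90.9 to 98.4 (95.7 ± 2.26, SD, n = 18). The next 4 of window 1 by mean percentile were chr13:21879013-21879509 (94.2), chr13:22127344-22127830 (94.2), chr13:22028769-22029400 (93.0) and chr13:22134714-22135206 (91.8). Those of window 2 were chr13:23654123-23654610 (95.1), chr13:23662891-23663417 (92.6), chr13:23635955-23636468 (92.3) and chr13:23626705-23627388 (92.1). All 10 were in every list, and the lowest percentile of any of them in any library was 79.9.

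The widest regions showed different shapes. chr13:23646800-23648290 (1491 bp) had 1193 ± 128 bp under peaks (865 to 1358 bp, SD, n = 18) and a mean percentile of 91.1, so it was broad in every library. chr13:22097784-22099188 (1405 bp) had 863 ± 256 bp (403 to 1336 bp) and a mean percentile of 68.5. Its width thus varied about 3.3-fold over the libraries while its rank stayed lower.

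The number of peaks in the cluster varied less than the length of the lists. The lists ran from 46431 to 129880 peaks, a 2.80-fold range, and the cluster had 102 to 148 peaks per library, a 1.45-fold range. The lists give no read counts, so the depth behind them is unknown. In ethanol-treated Brg1 fl/fl cells the cluster had 144 and 128 peaks (replicates 1 and 2), and 143 and 116 after tamoxifen. The second tamoxifen list was the shortest of all, and its 116 peaks exceeded the counts of 3 longer lists. Baf53a fl/- cells had 147 and 133 peaks with ethanol and 129 and 116 with tamoxifen. Wild-type cells at 24 h had 146 and 143 peaks with DMSO and 133 and 114 with ICRF-193. At 1 h the counts were 148, 107 and 146 with DMSO and 138, 102 and 127 with ICRF-193. Every numbered perturbed library had fewer cluster peaks than the control of its number, and in the 1 h groups and the Brg1 line the ranges overlapped.

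**Figure D2:**
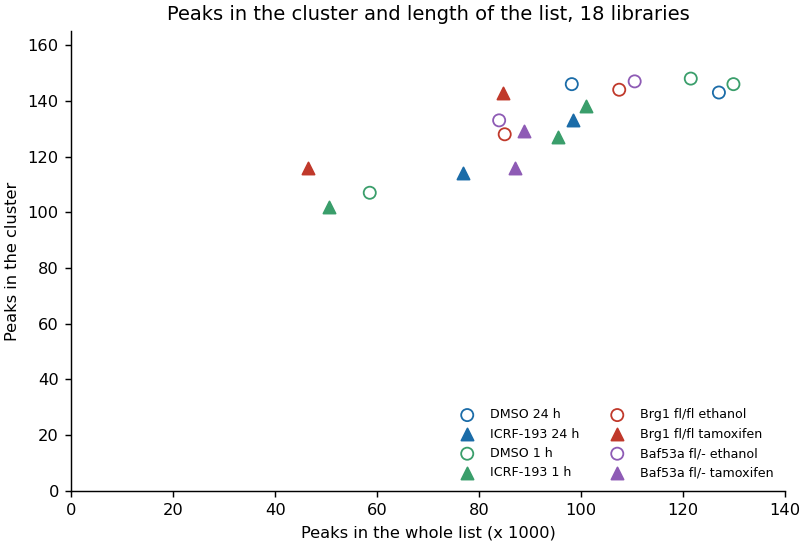
Peaks in the cluster (y axis) against peaks in the whole list (x axis, units of 1000), 1 point per library. Open circles are controls and filled triangles perturbed libraries. Cluster counts lie between 102 and 148 while the lists run from 46431 to 129880 peaks.

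Per 100000 peaks of a list, the cluster's share gave no difference past its test. The 24 h values were 149 and 113 with DMSO and 135 and 148 with ICRF-193. At 1 h they were 122, 183 and 112 with DMSO and 137, 202 and 133 with ICRF-193, higher by 0.17, 0.14 and 0.24 on the log2 scale within numbers 1, 2 and 3. The Brg1 line had 134 and 151 with ethanol and 169 and 249.8 with tamoxifen, without overlap, and the Baf53a line had 133 and 158 with ethanol and 145 and 133 with tamoxifen. The log2 difference was 0.13 at 24 h (two-sided exact permutation p = 1), 0.18 at 1 h (exact p = 0.5), 0.53 for Brg1 (exact p = 0.333) and -0.060 for Baf53a (exact p = 1). The smallest p that 2 against 2 libraries can give is 0.333, and 0.1 for 3 against 3. Over the 4 contrasts the mean was 0.20, with 7 of 9 numbered libraries higher (exact permutation p = 0.139 over 4320 arrangements within contrasts, also 0.139 after adjustment over the 2 cluster measures). Without the first or the second tamoxifen library the Brg1 difference was 0.81 or 0.25. At 1 h it was -0.0092 without the second ICRF-193 library and 0.40 without the second DMSO library. At 24 h it was -0.072 without the second DMSO library and 0.33 without the first. Without the first or the second ethanol library the Baf53a value was -0.19 or 0.066, and without the first or the second tamoxifen library -0.12 or 0.0018. The lists were shorter in most perturbed libraries, and a shorter list gives a higher share for the same count. With each contrast's lists cut to equal numbers of top-scoring peaks, the log2 difference was 0.37 after Brg1 deletion and -0.13 after Baf53a deletion. With ICRF-193 it was 0.016 at 24 h and 0.092 at 1 h. The mean over the 4 contrasts was then 0.086 (exact permutation p = 0.21), against 0.20 with the full lists.

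Relative to their lists, peaks in the cluster had larger median widths in every perturbed library than in any control in 3 of the 4 contrasts, too few libraries for a call. The median log2 width of the cluster's peaks minus that of the list was 0.098 and 0.16 with DMSO and 0.19 and 0.35 with ICRF-193 at 24 h. After Brg1 deletion it was 0.32 and 0.27 against 0.17 and 0.21, and after Baf53a deletion 0.35 and 0.41 against 0.25 and 0.17. The groups did not overlap in these 3 contrasts, where each exact permutation p was 0.333, the smallest possible. At 1 h the values were 0.29, 0.0036 and 0.31 against 0.31, 0.022 and 0.26, with a difference of 0.0020 (exact p = 1). Over the 4 contrasts the mean difference was 0.10, higher in 7 of 9 numbered libraries. Its exact permutation p was 0.0366, and 0.0731 after adjustment over the 2 measures, so that it did not pass. Sign flips within replicate numbers gave the same mean with an exact p of 0.0156 before adjustment, so the choice of test bears on this call. The value and its call depended on how the lists were treated. With equal numbers of top-scoring peaks the mean was 0.21, with an exact permutation p of 0.00185 before adjustment and contrasts of 0.29 (24 h), 0.057 (1 h), 0.25 (Brg1) and 0.23 (Baf53a). That cut removes low-scoring peaks from the longer lists only. Without subtracting the list's own median the mean was 0.059 (exact p = 0.348).

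Few regions of the cluster were lost or gained in any contrast. A region was lost when every control list and no perturbed list had a peak there, and gained in the reverse case. These are counts of called peaks, and fewer cells with open DNA at a site cannot be told apart from less signal in every cell. After Brg1 deletion, 2 of the 109 cluster regions shared by the ethanol lists (1.83%) were lost, against 23.9% of 56649 regions in the genome, and 2 of 100 regions were gained (2.00%, against 4.97%). Baf53a deletion left 5 of 106 lost (4.72%, against 11.2%) and 2 of 98 gained (2.04%, against 5.49%). ICRF-193 for 24 h gave 7 of 105 lost (6.67%, against 15.5%) and 1 of 89 gained (1.12%, against 5.46%). At 1 h none of 85 was lost (2.28% in the genome) and none of 78 gained (0.375% in the genome). The cluster's share was below the genome's in all of these comparisons, of which those at 1 h had a low background.

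**Figure D3:**
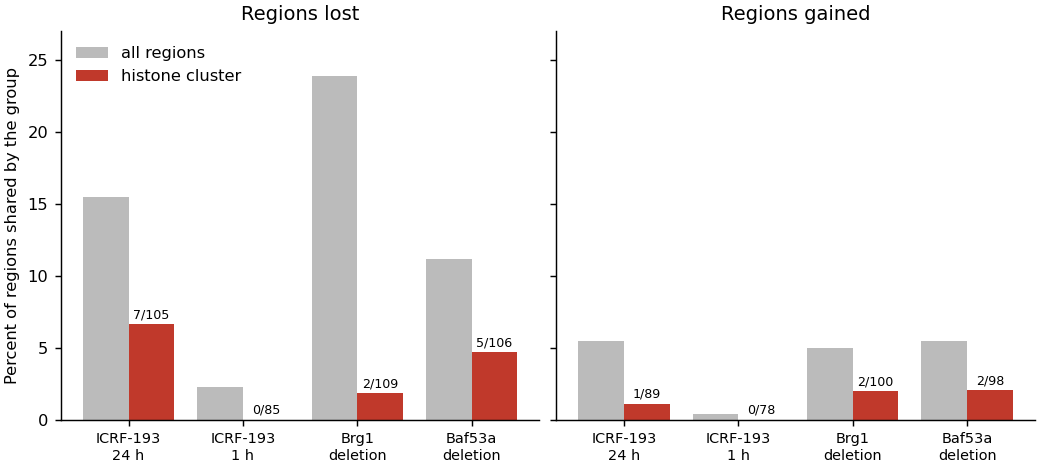
Percent of regions lost (left) and gained (right) in each contrast, for all regions (grey) and the histone cluster (red), over regions shared by every control list (lost) or every perturbed list (gained). Numbers above the red bars are the counts in the cluster. After Brg1 deletion 2 of 109 cluster regions were lost, against 23.9% of all.

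The Brg1 contrast showed the widest gap between cluster and genome. When regions shared by the ethanol lists were split into 5 equal classes of mean score percentile, from weak to strong, 48.4%, 33.1%, 23.4%, 11.9% and 2.50% of the genome's regions were lost. The cluster had 18, 24, 18, 22 and 27 regions in these classes, and lost 2, 0, 0, 0 and 0. Both lost regions were thus in the weakest class. After Baf53a deletion the classes lost 3 of 16, 0 of 18, 2 of 21, 0 of 22 and 0 of 29, and the 2 of 21 lie above the genome's 5.98%. At 24 h of ICRF-193 they lost 4 of 15 (40.8% in the genome), 3 of 15, near the genome's 22.3%, and none in the 3 stronger classes. With regions shared by the perturbed lists split likewise, every gained cluster region was in the weakest class. There 2 of 14 were gained after Brg1 deletion, against 17.5% in the genome. The counts were 2 of 7 after Baf53a deletion (18.7%) and 1 of 8 at 24 h (17.4%). Within this class the gains were thus above the genome's share after Baf53a deletion and near it in the others, on few regions. In the Brg1 line, loss counts rise when fewer lists have to agree. Without the first or the second ethanol library they were 8 of 120 (6.67%, against 37.6%) and 23 of 135 (17.04%, against 48.5%). Without the first or the second tamoxifen library they were 12 of 109 (11.0%, against 49.8%) and 4 of 109 (3.67%, against 26.2%). The cluster's share stayed under the genome's in each. Gains were 3 to 20 with 1 library left out, the highest without the second tamoxifen library (20 of 134, 14.9%, against 30.8%). With lists cut to equal numbers of top-scoring peaks, losses were 0 of 68 (against 19.0%), but gains were 11 of 91 (12.1%, against 9.48%), so that the lower share of gains did not hold there.

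Absences between pairs of single lists were also fewer in the cluster than in the genome. Of the 135 cluster regions in the first ethanol list, 26 (19.3%) were absent from the first tamoxifen list and 26 (19.3%) from the second ethanol list. Those lists are of like length, 84763 and 85007 peaks. Over the genome the absences were 50.9% and 43.9%. Other pairs gave other shares: 10 of 120 regions (8.33%) of the second ethanol list were absent from the first tamoxifen list, and 36 of 135 (26.7%) of the first ethanol list from the short second tamoxifen list. The genome's absences in these pairs were 40.3% and 69.1%.

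Most control sites were kept in every perturbed list. After Brg1 deletion 95 of 109 (87.2%) were kept, against 47.8% of the genome's regions. The shares were 90 of 106 (84.9%, against 68.4%) after Baf53a deletion, 82 of 105 (78.1%, against 62.3%) at 24 h of ICRF-193 and 71 of 85 (83.5%, against 69%) at 1 h. Across all contrasts, 73 cluster regions had a peak in all 9 control lists and 13 of these (17.8%) missed 1 or more perturbed lists, against 41.2% of 30735 regions. The absences fell mostly in second replicates: 7 in ICRF-193 at 24 h, 7 at 1 h, 4 in Brg1 tamoxifen and 2 in Baf53a tamoxifen. In the same lists 2637, 4967, 8801 and 2635 of the genome's 30735 regions were absent. The cluster's share was thus below the genome's in these lists except that of ICRF-193 at 24 h, where it was not. The lists at 1 h and in Brg1 tamoxifen were short, with 50611 and 46431 peaks. In the other replicates, 1 was absent with ICRF-193 at 24 h (replicate 1) and 1 at 1 h (replicate 3), and none in the first Brg1 tamoxifen list. The genome's absences in those lists were 1258, 747 and 2851 of 30735. In the reverse direction, 5 of 65 regions of every perturbed list (7.69%) missed a control list, against 6.74% in the genome, which is near the background.

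The regions that were lost or gained were of low to middle rank. After Brg1 deletion, chr13:23687373-23687861 and chr13:23855351-23856322 were lost. The second had a peak in 15 of 18 lists, among them 13 of the 14 lists outside the Brg1 line, with a mean percentile of 55.1 ± 22.4 (SD, n = 15). In the ethanol lists its mean percentile was 14.3 ± 12.9 (SD, n = 2), so that it ranked low there. The gained regions were chr13:21825338-21825568 and chr13:23610856-23611112, present in 5 and 9 lists. Both were lost after Baf53a deletion, where they were in both ethanol lists and neither tamoxifen list.

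Lost after Baf53a deletion were also chr13:23531829-23532033 (percentile 64.0 ± 5.91 in the ethanol lists, SD, n = 2), chr13:23674675-23674844 and chr13:23577179-23577420. The first of these was lost with ICRF-193 at 24 h as well, and was the one region lost in more than 1 contrast. It had peaks in 6 of the 18 lists. The regions gained after Baf53a deletion were chr13:23870383-23870916, found in 8 lists, and chr13:21913229-21913571, found in the 2 tamoxifen lists of this line alone. Without single libraries, Baf53a losses numbered 14 (first ethanol library left out), 24 (second), 13 (first tamoxifen) and 8 (second), with shares under the genome's 28.1%, 35.0%, 24.6% and 18.1% of the same bases. Gains were then 2 to 10, with 10 of 112 and 10 of 121 without the first or second tamoxifen library and 8 of 98 without the first ethanol library. The genome's shares for these gains are not given here, so they have no background beside them.

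With ICRF-193 at 24 h 7 regions were lost, of which the 6 of highest rank are named. The strongest was chr13:21992925-21993399 (percentile 58.7 ± 1.496 in the DMSO lists, SD, n = 2), found in 4 lists. chr13:22072746-22074086 (46.0 ± 4.85) was found in 15 lists, in every one but the 2 of ICRF-193 at 24 h and the second tamoxifen list of the Brg1 line. The others were chr13:21920487-21920825, chr13:23551273-23551609, chr13:23531829-23532033 and chr13:23793080-23793342, with mean percentiles of 34.6 to 44.4. The gained region, chr13:23775187-23775417, started 466 bp before the highest-ranked region of window 2 and ranked at a percentile of 12.6 in the ICRF-193 lists. Without the first or second DMSO library 21 of 134 and 21 of 131 were lost, and without the first or second ICRF-193 library 19 and 11 of 105. The genome's shares in these settings were 42.8%, 32.5%, 31.5% and 21.7%. Gains were 5 and 3 of 89 without the first or second DMSO library. They were 5 of 104 and 11 of 125 without the first or second ICRF-193 library. At 1 h the losses were 0 to 4, with the 4 arising without the second DMSO library. The genome's shares for these gains and for the 1 h losses are not given here, so these counts have no background beside them.

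Within the set of common regions, the cluster ranked higher after Brg1 deletion than in its controls. Here each list was reduced to the same 18061 regions, so that every percentile had the same base, and the median over the cluster's 60 regions was taken. An effect of list length or depth on the scores themselves is not removed by this and was not tested. This measure was chosen after the data were seen and is described without a test. It was 34.0 and 33.9 in the ethanol lists of the Brg1 line and 59.3 and 58.2 in the tamoxifen lists, a difference of 24.8 points. The replicates of each group lay within 1.17 points of each other. Window 1 had 32.5 and 42.2 with ethanol and 64.9 and 56.8 with tamoxifen, and window 2 had 35.4 and 31.8 against 51.4 and 58.2. In the Baf53a line the values were 32.5 and 51.8 with ethanol and 49.5 and 56.2 with tamoxifen. Wild-type cells had 40.7 and 32.1 with DMSO and 51.0 and 38.7 with ICRF-193 at 24 h, and 39.0, 39.6 and 33.8 against 42.5, 48.8 and 38.4 at 1 h. These 3 contrasts overlapped between groups. Within each of the 9 numbered comparisons the perturbed library was higher, by 3.41 to 25.3 points.

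**Figure D4:**
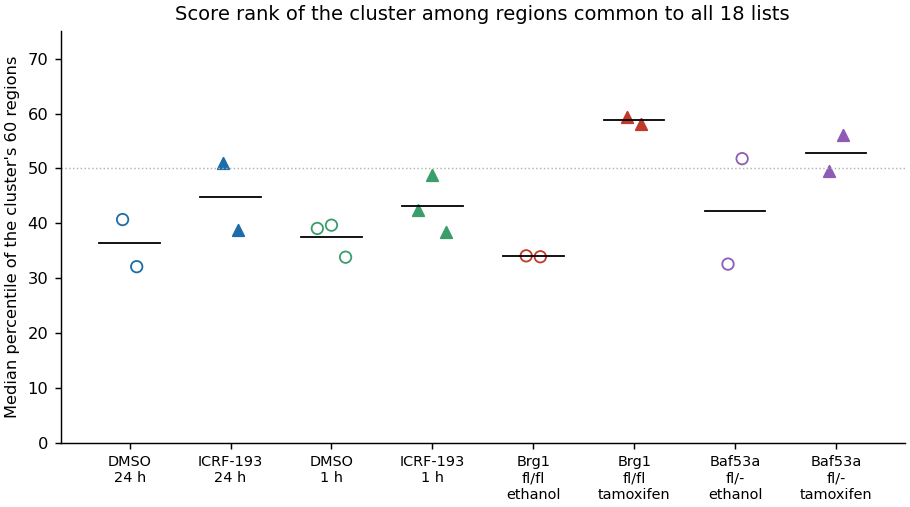
Median score percentile of the cluster's 60 common regions among the 18061 regions found in all lists (y axis), by group. Points are libraries (open circles controls, triangles perturbed), black lines group means and the dotted line the middle rank. The Brg1 tamoxifen libraries (59.3 and 58.2) lie above the ethanol libraries (34.0 and 33.9).

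The higher rank was spread over many members. After Brg1 deletion 32 of the 60 regions (53.3%) ranked higher in both tamoxifen lists than in both ethanol lists, against 25.5% of all common regions, and none ranked lower in both (19.96% of all). The counts of regions above every control were 26 (43.3%, against 21.2%) at 24 h of ICRF-193 and 19 (31.7%, against 19.6%) after Baf53a deletion. At 1 h, 3 of 60 (5%) did so, against 5.08%. A rank is relative: it moves up when other regions of the list move down, and the share of the latter in these values was not tested. For single regions named above, the percentiles given next are among the common regions alone, not in the whole lists as before. Of these regions, chr13:21845560-21846107 had 61.1 and 70.1 in the ethanol lists and 92.8 and 89.4 in the tamoxifen lists of the Brg1 line, without overlap. chr13:23775653-23776226 had 89.2 and 68.9 against 84.2 and 82.2, which overlap.

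No single region of the cluster changed in width past the test. limma was fitted to the log2 base pairs under peaks of the 18061 common regions, centred within each library, with Benjamini-Hochberg adjustment over all regions. It called 16 regions after Brg1 deletion (0.0886%), all narrower, 1 at 24 h of ICRF-193 (0.00554%) and 0 (0%) in the other contrasts, none of them among the 60. At an unadjusted limma p under 0.05 the cluster had 5 regions after Brg1 deletion (9.18% of all regions), 3 after Baf53a deletion (4.49%), 3 at 24 h (5.61%) and 1 at 1 h (4.63%). The smallest adjusted p in the cluster was 0.388 by limma, after Brg1 deletion. In that contrast 54 of 60 regions (90%) had a positive log2 change, against 55.3% of all, with a median of 0.29 (all regions 0.054). The median was 0.49 without the first tamoxifen library and 0.14 without the second, and limma then called 1.77% and 0.0469% of all regions, none of them in the cluster. It called 0.00552% without the first ethanol library and 0% without the second. Without centring, the median was 0.0023 with 31 of 60 positive, beside -0.24 over all regions, so that the positive direction is relative to the other common regions.

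**Figure D5:**
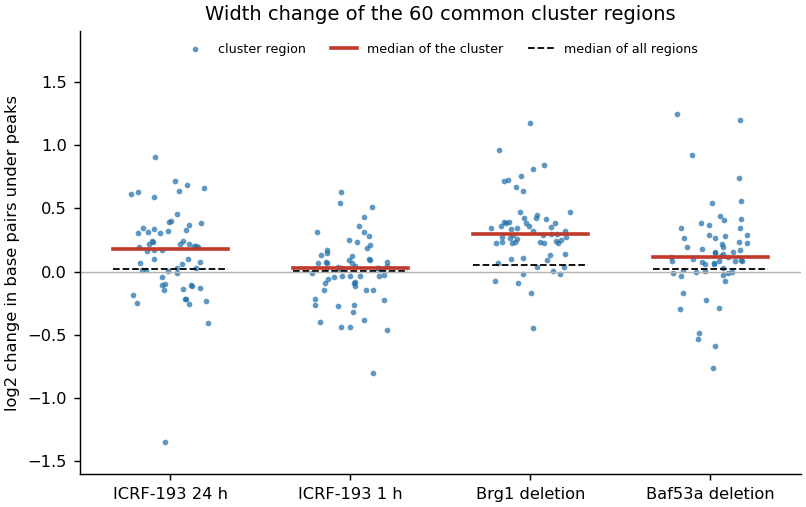
log2 change in base pairs under peaks (y axis) of the 60 common cluster regions in the 4 contrasts, perturbed minus control, each library centred on its median. Dots are regions, spread sideways at random, red lines the cluster's median and dashed lines the median of all 18061 regions. The cluster's medians were 0.18 (24 h), 0.024 (1 h), 0.29 (Brg1) and 0.12 (Baf53a).

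The member with the smallest unadjusted p in each contrast was looked up after the fit. Base pairs are given as they stand in the lists, without centring. The log2 changes come from the centred fit and therefore differ from those of the base pairs. chr13:23591971-23592984 had 581 and 446 bp under peaks with ethanol and 840 and 634 bp with tamoxifen in the Brg1 line (log2 change 0.81, SE 0.30). In the Baf53a line it had 587 and 353 bp with ethanol and 923 and 708 bp with tamoxifen (log2 change 0.92, SE 0.30), so both deletions had wider values without overlap. At 1 h the member was chr13:23667411-23667703, with 151, 119 and 123 bp with DMSO and 188, 131 and 276 bp with ICRF-193 (log2 change 0.63, SE 0.25), higher within each number but with overlapping groups. chr13:21998861-22000120 had 516 and 520 bp with DMSO and 326 and 102 bp with ICRF-193 at 24 h (log2 change -1.35, SE 0.50). At 1 h, where it was not the leading member, this region had 723, 317 and 497 bp against 645, 117 and 235 bp, lower within each number. After Baf53a deletion the same region had 444 and 796 bp against 324 and 234 bp. chr13:23517259-23517698 had 162 and 152 bp with ethanol and 369 and 330 bp with tamoxifen in the Baf53a line (log2 change 1.24, SE 0.36). The limma adjusted p of these changes ran from 0.388 to 1.00, none past the threshold.

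Peak density in 50 kb bins, scaled to list length, gave no call in the cluster either. Of 11726 bins, 14 lay in the windows. limma called 39 bins in the genome after Brg1 deletion (0.333%), 2 after Baf53a deletion (0.0171%) and 0 (0%) with ICRF-193 at either time, and none of the 14. At an unadjusted limma p under 0.05, 4 of the 14 were found after Brg1 deletion (11.2% of all bins) and 0 in the other contrasts (3.62% of all bins for Baf53a, 4.02% at 24 h and 4% at 1 h). After Brg1 deletion all 14 bins had a positive log2 change, against 63.2% of all bins, with a median of 0.52 against 0.18 over all bins. The median was 0.86 without the first tamoxifen library and 0.27, with 13 of 14 positive, without the second. limma called 3.96% and 0.222% of all bins in these settings, 0.0516% without the first ethanol library and 0.00849% without the second, and none of the cluster in any. With quantile normalisation 11 of 14 were positive, with a median of 0.14. With equal numbers of top-scoring peaks 13 of 14 were positive, with a median of 0.29.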

How the data were processed

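ATAC-seq peak lists of 18 mouse ES cell libraries in 8 groups were used, 1 list per library. Per the submitters' processing notes, reads were handled with Bowtie 0.12.9, MACS2 and edgeR 3.12.1 on mm9, with no role stated for each. How reads were trimmed, shifted or filtered, and which calling threshold applied, is not given in the sources used here. Peak positions were taken as deposited and are printed counted from 1. The score in the deposited lists is the authors' value per peak, with no unit stated, and served for ranking within a list only.

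Peaks overlapping by 1 bp or more were merged over all lists (checked with bedtools 2.31.1), and a region's score in a list was that of its highest peak. Share and width per library were compared by exact permutation. Common regions and 50 kb bins averaging at least 3 peaks (log2 of peaks + 0.5 per 100000) were fitted with limma 3.58.1 in R 4.3.3 over all libraries, adjusted p under 0.05 after Benjamini-Hochberg adjustment over all features. Python 3.11.15 with pandas 2.3.3 and scipy 1.17.1 was used otherwise. Both tests were tested on simulated data. Named regions are the 5 highest-ranked and the widest of each window and up to 6 lost or gained per contrast. The members and lists were chosen with earlier results of these data known. Alternatives left out single libraries, levelled list lengths, used the top 50% of each list, merged peaks up to 100 bp apart, or changed centring and bins.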

Additional observations from a re-analysis of the deposited data

Results flagged for a closer look

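Regions chr13:21825338-21825568 and chr13:23610856-23611112 went opposite ways in the BAF deletions: each had a peak in both tamoxifen and no ethanol list of the Brg1 line, and in both ethanol and no tamoxifen list of the Baf53a line. The difference was not tested. The first had a peak in 5 of 18 lists (mean percentile 38.7 ± 17.9, SD, n = 5) and the second in 9 (50.4 ± 24.6, SD, n = 9). In the Brg1 tamoxifen lists their mean percentiles were 42.9 ± 32.4 and 39.5 ± 50.1 (SD, n = 2 each). The ethanol lists of the 2 lines thus differ at these sites as well.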

How the results depend on the processing

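Over the 4 contrasts the cluster's share of peaks had a log2 difference of 0.32 with the top 50% of each list (exact permutation p = 0.0167) and 0.27 by base pairs under peaks (exact p = 0.0231), where it passed an unadjusted p of 0.05. The Baf53a share turned positive in both (0.17 and 0.14). The combined width was 0.060 with the top 50% (exact p = 0.0648) and 0.059 without centring on the list, but 0.21 with equal numbers of peaks (exact p = 0.00185), where the share was 0.086 (exact p = 0.21); the cause was not tested. With the replicate block (permutation within numbers), the combined values of 0.20 and 0.10 were unchanged, with exact p of 0.109 and 0.0156. Whether the numbers pair the samples was not settled. At 1 h, correlations of same-numbered deviations were 0.14, 0.21 and 0.050, and those of different numbers ran from -0.17 to 0.084. With 2 libraries per group the check gives only 1 value and its mirror per contrast (same-numbered -0.0066 to 0.077), so it cannot decide there. The cluster's limma calls stayed at 0 with the block. Over the genome, limma with the block called 0.0277% of regions in place of 0.0886% and 0.409% of bins in place of 0.333% after Brg1 deletion, and 0% of regions in place of 0.00554% at 24 h.

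Cluster losses and gains moved as follows. They are given here as counts without the genome's shares and are not read against a background. With equal numbers of peaks, losses were 4 at 24 h and 0 after Brg1 deletion, and Brg1 gains 11. With the top 50%, losses were 3 at 24 h and 1 at 1 h, and gains 2 at 24 h and 5 after Baf53a deletion. With regions rebuilt from a contrast's own lists, gains were 2 at 24 h and 4 after Brg1 deletion. Leaving out each library in turn lets fewer lists agree, and losses were then 11 to 21 at 24 h, 0 to 4 at 1 h, 4 to 23 for Brg1 and 8 to 24 for Baf53a. Gains were 3 to 11, 0 to 2, 3 to 20 and 2 to 10 in that order. The share ran from -0.072 to 0.33 at 24 h, -0.0092 to 0.40 at 1 h, 0.25 to 0.81 for Brg1 and -0.19 to 0.066 for Baf53a. The 1 h width ran from -0.086 to 0.10, and the combined width from 0.082 to 0.13, with an exact p under 0.05 in 11 of 18 such settings. limma called 0 cluster regions and 0 cluster bins in every alternative run. Of 310 alternatives, 252 kept their direction and their side of an unadjusted threshold, a count within 1.5 times, or a rank value within 1 SD. That number is no measure of stability. Permutation within 1 contrast cannot give a p under 0.1, so no such test could cross the threshold, and the limma counts were 0 in every run. Lists without counts give no depth, and sites under the calling threshold cannot be told from closed ones.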
